A study of Mus musculus with 11 samples.

Results

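The 9 genes described here form the core of the sonic hedgehog pathway: the ligand gene Shh, the receptor and co-receptor genes Ptch1, Boc and Cdon, the ligand-binding inhibitor Hhip, the signal transducer Smo, and the transcription factor genes Gli1, Gli2 and Gli3. They were taken by name, and each is compared across 4 brain regions. The deposited tables list 24421 genes, of which 13875 had enough reads to be tested, and 8 of the 9 hedgehog genes were among them. Shh was not, since 7 reads in all were assigned to it. Astrocytes were sorted by fluorescence from 16-week-old C57BL/6 mice carrying an Aldh1l1-eGFP transgene, in which a bacterial artificial chromosome places green fluorescent protein under the control of the astrocyte gene Aldh1l1. RNA was sequenced from 3 samples of the olfactory bulb (OB), 3 of the hippocampus (HC), 2 of the cortex (CX) and 3 of the brainstem (BS). Mice of both sexes were used, all groups carried the same transgene, none received a treatment, and no label says whether the samples of a region are separate animals, so p-values measure the spread between these samples, which may be technical.

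Hedgehog signaling is a route by which cells read a secreted lipid-modified protein. Without ligand, the receptor Patched1 holds Smoothened inactive and the Gli proteins, above all Gli3, are cut into repressors. When ligand binds Patched1, aided by the co-receptors Boc and Cdon, Smoothened becomes active at the primary cilium and Gli2 and Gli3 are left whole and can activate genes. Gli1, Ptch1 and Hhip are well-known transcriptional targets, so that the last 2 also form negative feedback. In the adult brain neurons are a main source of Shh, and astrocytes are among the cells that respond to it.

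Values are given as normalized values, that is, reads on a gene after division by a size factor of the library. It is not corrected for gene length. Between 2830746 and 14151670 reads per library were counted on genes, so that 1 read was worth between 0.367 and 2.10, and 3 reads, taken as the detection floor, between 1.10 and 6.31. Such a floor reflects counting error alone. Aldh1l1 itself was present in every library, with a CX mean of 1180 ± 194 (SD, n = 2), an OB mean of 959 ± 15.3 (SD, n = 3), a BS mean of 845 ± 356 (SD, n = 3) and an HC mean of 764 ± 196 (SD, n = 3). Of 8 astrocyte markers, all were detected in every region and 1, Gfap, differed among the regions by the test used below, against 16.5% of all genes. The summed value of the 8 markers lay at 527671 to 600408 for CX, 258420 to 438929 for HC, 207441 to 249060 for OB and 94364 to 277746 for BS libraries. Markers of other cells were also present. The 5 oligodendrocyte markers had sums of 50199 to 86122 for BS, 17401 to 37985 for HC, 17497 to 19143 for CX and 8833 to 14889 for OB libraries, and all 5 differed among the regions. The 5 choroid plexus markers had sums of 34.7 to 46.9 for OB libraries, where Folr1 was at 0 throughout, 1575 to 4709 for CX, 69221 to 140589 for HC and 49747 to 234198 for BS libraries, and all 5 differed. Replicate 1 of the BS stood apart, with the lowest astrocyte sum, the highest choroid plexus sum and 2037 for the 3 markers of the meninges, against 28.9 to 370 in the other libraries. The ribosomal entry Rn45s took 18% to 25.6% of the reads of each CX and BS library and 0.966% to 2.93% in the OB and HC. OB libraries had sums of 1249 to 1703 for the 2 olfactory ensheathing glia markers, against at most 38.4 elsewhere. The 3 olfactory sensory neuron markers summed to 226 to 415 in the OB, against at most 6.13 elsewhere. For the 7 markers of neuroblasts and dividing cells the OB sums were 569 to 872, against at most 462 elsewhere. Their part in the OB values below was not tested. In sorted cells pooled into one library, fewer cells of a type and less RNA per cell cannot be told apart.

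Regions were compared with limma on log2(value + 1), and p-values were adjusted over all 13875 genes, with an adjusted p under 0.05 counted as a difference. In the test across the 4 regions, 2 of the 8 hedgehog genes differed, Gli3 and Boc. Of all genes, 16.5% did. Gli3 was highest in the CX and lowest in the BS. Boc was highest in the BS and lowest in the CX. Ptch1, Smo, Gli1, Gli2, Hhip and Cdon did not pass.

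**Figure D1:**
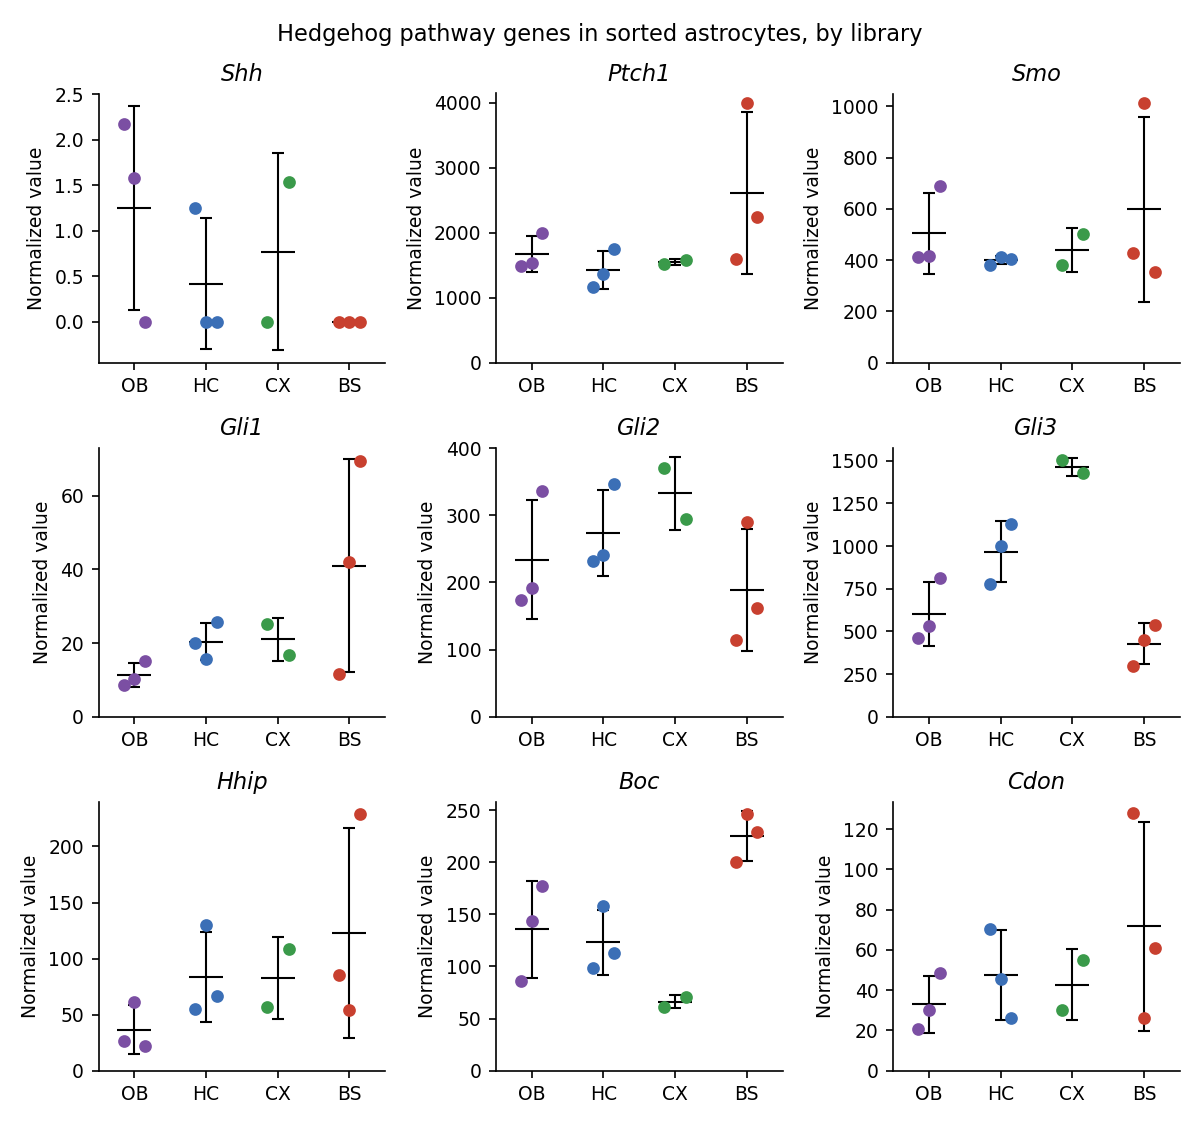
Normalized value (vertical axes, linear) of the 9 hedgehog genes in each library, grouped by region; points are libraries, the horizontal mark is the mean and the bars are ± SD (n = 3 for OB, HC and BS and 2 for CX). Gli3 lay between 1427 and 1501 in the CX and between 299.6 and 537 in the BS, whereas Boc lay between 61.6 and 70.5 in the CX and between 199.7 and 246 in the BS.

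The promoter windows of 3 of these genes are shown because they belong to the gene with the clearest regional difference (Gli3) and to both feedback inhibitors that are known Gli targets (Ptch1 and Hhip). They hold the 250 bases before the transcription start of RefSeq on GRCm38.p6, which has the coordinates of mm10, on the gene's own strand. Windows of 6 of the 9 genes were at hand (Ptch1, Smo, Gli2, Gli3, Hhip and Cdon). Capitals mark the best match, with at most 2 mismatches, to the Gli binding sequence GACCACCCA or its reverse complement TGGGTGGTC.
Gli3, chr13:15463473-15463722, plus strand: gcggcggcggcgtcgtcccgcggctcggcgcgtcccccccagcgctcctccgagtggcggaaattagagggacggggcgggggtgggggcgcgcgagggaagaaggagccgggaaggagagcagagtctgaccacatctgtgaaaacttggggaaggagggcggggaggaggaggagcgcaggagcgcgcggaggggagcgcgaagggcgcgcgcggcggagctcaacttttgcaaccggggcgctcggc
Ptch1, chr13:63565736-63565985, minus strand: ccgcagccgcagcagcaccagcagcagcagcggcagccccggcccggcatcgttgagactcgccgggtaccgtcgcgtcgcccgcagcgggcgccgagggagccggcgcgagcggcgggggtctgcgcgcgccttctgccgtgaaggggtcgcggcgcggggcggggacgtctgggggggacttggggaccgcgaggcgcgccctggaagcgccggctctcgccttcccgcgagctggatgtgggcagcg
Hhip, chr8:80058009-80058258, minus strand: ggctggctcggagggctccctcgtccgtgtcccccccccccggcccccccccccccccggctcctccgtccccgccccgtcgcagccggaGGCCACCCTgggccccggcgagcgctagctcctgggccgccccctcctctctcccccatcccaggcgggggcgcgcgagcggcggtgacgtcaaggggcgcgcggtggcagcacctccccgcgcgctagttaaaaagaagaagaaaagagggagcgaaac

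In GENCODE, the Gli3 and Ptch1 windows lie in introns of longer transcripts of the same genes, and the Gli3 window also lies over an exon of the noncoding gene Gm6556 on the other strand. The Cdon window (chr9:35451826-35452075) also lies inside the bounds of its gene (35421128 to 35507652). The Hhip window overlaps no annotated transcript. None of the 6 windows held the Gli sequence exactly, which 0.225% of 32851 windows of this length did. With 1 mismatch allowed, again 0 of 6 held it, against 5.79% of all windows. With 2 mismatches, the windows of Smo, Gli2 and Hhip held a match, 3 of 6, against 51.8% of all windows. The match of Hhip began 160 bases before the start and differed by A2G and A9T, counted from the 5′ end of GACCACCCA with the motif's base first. The share of G and C was 72.8% for Gli3, 78.4% for Ptch1, 76.0% for Hhip, 68.4% for Smo, 67.2% for Gli2 and 42.8% for Cdon, against a median of 52.4% over all windows. A match of letters is a description of the window and not a bound site.

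Shh encodes the ligand. Its normalized value was 2.17, 1.58 and 0 in OB libraries, 1.25, 0 and 0 in HC libraries, 0 and 1.53 in CX libraries, and 0 in all 3 BS libraries. No library had more than 2 reads, so every value lay under the floor of its library, and Shh was not detectable at this depth in the astrocytes of any region. Exact permutation tests over libraries, two-sided, of each region against the rest gave p-values between 0.133 for the OB and 0.982 for the CX, and between 0.533 and 0.982 after adjustment over the 4 comparisons. Shh (chromosome 5, 28456815 to 28467256, minus strand) overlaps antisense genes in GENCODE, and whether the counting used strand was not stated.

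Ptch1 (chromosome 13, 63508328 to 63573598, minus strand) had the most reads of the 9 genes, 21943 over all libraries. Its values were 1491, 1527 and 1989 in OB, 1170, 1363 and 1749 in HC, 1518 and 1581 in CX and 1590, 3999 and 2244 in BS libraries. The BS held the 2 highest libraries, but its replicate 1 fell among those of the other regions. The BS mean of 2611 ± 1246 (SD, n = 3) stood against 1427 ± 295 (SD, n = 3) in the HC, the lowest. The difference of the BS from the other regions was 0.66 on the log2 scale (SE 0.23), with an adjusted p of 0.113, and across the 4 regions the adjusted p was 0.182. Within the BS, the order of the Ptch1 values was that of Aldh1l1 (623, 1256 and 657 in replicates 1 to 3) and of the mean log2 value of the 8 astrocyte markers (11.94, 12.94 and 12.36). With each library scaled to these markers, an alternative chosen after the data were seen, Ptch1 was higher in the BS than in the rest by 0.96 on the log2 scale (SE 0.16, adjusted p = 0.0028), while the median gene moved by 0.32 in the same direction. Without BS replicate 1 the difference was 0.97 (SE 0.22, adjusted p = 0.039), and without BS replicate 2 it was 0.30 (SE 0.19, adjusted p = 0.389). DESeq2 on all libraries called Ptch1 across the 4 regions and for the BS against the rest. The call for Ptch1 thus depended on which BS libraries entered, on the scaling and on the test.

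Boc (chromosome 16, 44485049 to 44558897, minus strand), a cell surface co-receptor that binds the ligand together with Patched1, gave 85.8, 144 and 177 in OB, 98.7, 158 and 113 in HC, 61.6 and 70.5 in CX and 199.7, 246 and 229 in BS libraries. All 3 BS libraries lay above, and both CX libraries below, every library of the other regions. Boc in the BS and Gli3 and Boc in the CX were the only ones of the 8 genes whose region did not overlap with the rest, which 7.89% of all genes did for the BS and 8.17% for the CX. None did for the OB (8.17% of all genes) or the HC (1.54%). Across the 4 regions Boc differed with an adjusted p of 0.0089. The BS mean of 225 ± 23.6 (SD, n = 3) was above the CX mean of 66.0 ± 6.34 (SD, n = 2), a difference of 1.75 on the log2 scale (SE 0.32, 3.37-fold, adjusted p = 0.0027), in a pair of regions where 10.9% of all genes differed. The order was BS, OB, HC and CX, and no neighbours in it differed beyond their spread, with adjusted p-values of 0.087 for BS and OB, 0.919 for OB and HC and 0.269 for HC and CX. Without CX replicate 1 the adjusted p across the 4 regions was 0.054, so that the call was lost, while the CX and BS still differed (adjusted p = 0.042). The oligodendrocyte markers were also highest in the BS, and their part in the Boc values was not tested.

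Cdon (chromosome 9, 35421128 to 35507652, plus strand), the other co-receptor of this kind, gave 20.6, 30.0 and 48.5 in OB, 70.6, 45.7 and 26 in HC, 30.2 and 55.2 in CX and 128, 26 and 61.0 in BS libraries. The regions overlapped throughout, and the BS held both the highest value of all and 1 of the lowest. The highest was that of BS replicate 1, the library that stood apart in its meninges and choroid plexus markers. Their part in the Cdon values was not tested. The adjusted p across the regions was 0.687. Unlike Boc, Cdon gave no difference of the CX from the BS that the test could resolve (-0.52 on the log2 scale, SE 0.64, adjusted p = 0.689), and the difference between the 2 genes was not tested.

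Hhip (chromosome 8, 79965851 to 80058006, minus strand), which binds hedgehog ligands at the membrane and limits the signal, gave 26.1, 61.6 and 22.1 in OB, 55.0, 130 and 66.4 in HC, 56.5 and 109 in CX and 85.2, 54.1 and 229 in BS libraries. The 2 lowest libraries were OB libraries, and OB replicate 2 lay above the lowest libraries of the other 3 regions. The OB was below the rest by 1.36 on the log2 scale (SE 0.45), which missed the adjusted threshold (adjusted p = 0.114). It met a looser rule for differentially expressed genes (DEG rule below), with an unadjusted limma p under 0.01, a fold over 1.5 and at least 2 replicates of a region with values over 5. These thresholds are those of the methods, and the rule was applied here to each region on its own, so that a gene can meet it in more than 1 region. Across the 4 regions the adjusted p was 0.174.

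Smo (chromosome 6, 29735503 to 29761365, plus strand), the transducer that Patched1 restrains, was the most even of the 8 genes by the ratio of its highest to its lowest region mean, which was 1.49. It gave 412, 414 and 688 in OB, 382, 414 and 405 in HC, 379 and 501 in CX and 429, 1012 and 354 in BS libraries. Replicate 2 of the BS, the library with the highest mean of the astrocyte markers, was the highest for Smo as it was for Ptch1, and the remaining libraries of all regions overlapped. The adjusted p across the regions was 0.753. The ratio of Ptch1 to Smo within a library, each as value per kb of exon, ranged from 1.40 to 2.09 in the OB, HC and CX and was 1.79, 1.91 and 3.07 in the BS.

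Gli3 (chromosome 13, 15463235 to 15730026, plus strand) encodes the Gli protein best known as a repressor. Its values were 460, 533 and 815 in OB, 776, 999 and 1127 in HC, 1501 and 1427 in CX and 299.6, 447 and 537 in BS libraries. Both CX libraries lay above every other library, all HC libraries lay above all BS libraries, and the OB overlapped with the HC and the BS. Across the 4 regions Gli3 differed with an adjusted p of 0.00088, and leaving out any of the 11 libraries in turn kept it between 0.00066 and 0.0080. The CX mean of 1464 ± 52.2 (SD, n = 2) was above the BS mean of 428 ± 120 (SD, n = 3) by 1.81 on the log2 scale (SE 0.27, 3.52-fold, adjusted p = 0.00053). The HC, at 968 ± 178 (SD, n = 3), was above the BS by 1.2 (SE 0.24, adjusted p = 0.0082), where 4.63% of all genes differed. The OB, at 603 ± 187 (SD, n = 3), was below the CX by 1.32 (SE 0.27, adjusted p = 0.0095), where 4.91% of all genes differed. Neighbours in the order CX, HC, OB and BS did not differ beyond their spread, with adjusted p-values of 0.368 for CX and HC, 0.104 for HC and OB and 0.210 for OB and BS.

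The region means of Gli3 followed the order of the summed astrocyte markers, highest in the CX and lowest in the BS. Each library was also scaled to the mean log2 value of the 8 markers, which is a different measure from their sum. Gli3 then differed across the regions with an adjusted p of 0.0087, and the CX was above the BS by 1.33 (SE 0.28, adjusted p = 0.0079). Scaling to the sum was not tested. Rn45s was high in both the CX and the BS, the regions where Gli3 was highest and lowest, and low in the OB and HC. The Gli3 differences of OB from CX and of HC from BS cross that split, so region and Rn45s cannot be told apart there. The part of Rn45s in the Gli3 values was not tested. The OB to CX difference was no longer called without CX replicate 1 (adjusted p = 0.125), without CX replicate 2 (0.078) or without OB replicate 1 (0.051). Gli3 overlaps the antisense gene Gm6556.

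Gli2 (chromosome 1, 118834132 to 119053619, minus strand), the Gli protein best known as an activator, gave 174, 192 and 336 in OB, 232, 241 and 347 in HC, 371 and 294 in CX and 115, 290.5 and 162 in BS libraries. The CX libraries were both above those of the BS, by 0.91 on the log2 scale (SE 0.36, adjusted p = 0.130), and the other regions overlapped. The adjusted p across the regions was 0.287. Without BS replicate 2, whose Gli2 value was the highest of its region, it was 0.046, and the CX was then above the BS by 1.27 (SE 0.33, adjusted p = 0.017).

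Gli1 (chromosome 10, 127329882 to 127341974, minus strand), an activator whose transcription is a common readout of the pathway, was low throughout. Its 264 reads gave 8.69, 10.3 and 15.1 in OB, 20.0, 15.5 and 25.7 in HC, 25.1 and 16.9 in CX and 11.6, 42.1 and 69.5 in BS libraries. The OB lay below every HC and CX library, and the BS held both the 2 highest values and 1 within the range of the OB. The adjusted p across the regions was 0.395, and the OB was below the BS by 1.48 on the log2 scale (SE 0.63, adjusted p = 0.141). Without BS replicate 1 that difference was 2.19 (SE 0.58, adjusted p = 0.025). Gli1 overlaps the end of Arhgap9 and the antisense gene Gm47200, whose reads may not have been kept apart.

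**Figure D2:**
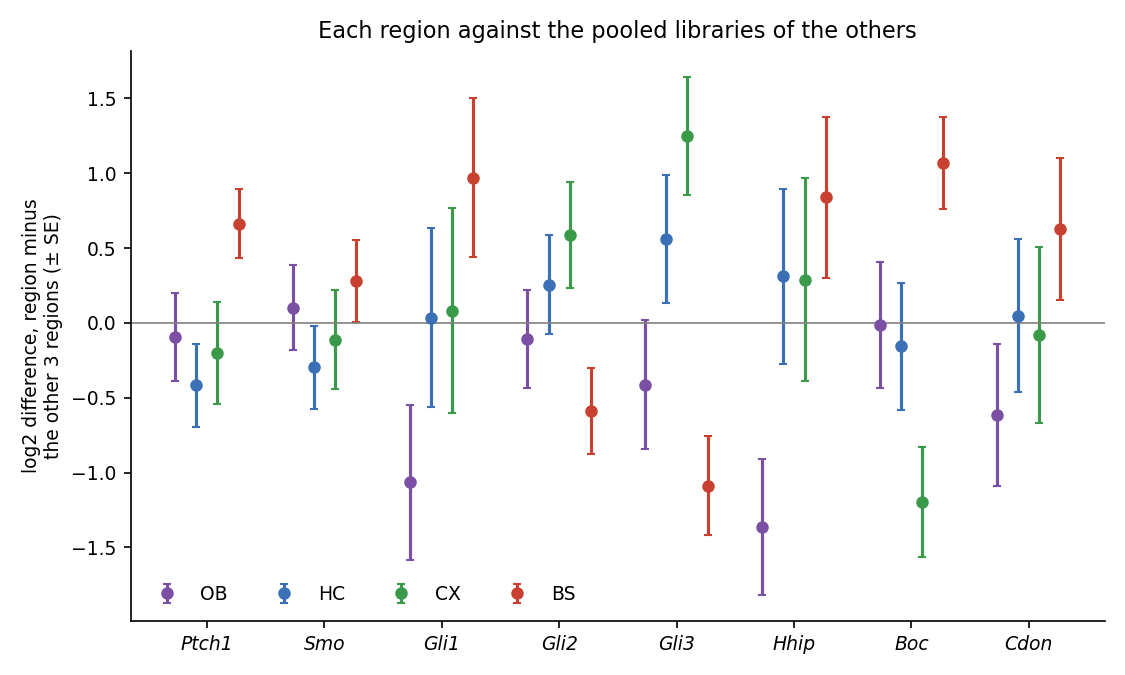
Difference on the log2(value + 1) scale (vertical axis) of each region, by color, from the pooled libraries of the other 3 for the 8 hedgehog genes tested; points are limma estimates and bars are ± SE. Gli3 and Boc had opposite signs in the CX (1.25 and -1.19) and in the BS (-1.09 and 1.07), and Hhip was lowest in the OB (-1.36).

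Each region was also set against the pooled libraries of the other regions, the comparison named in the methods. At the adjusted threshold limma called 0 of the 8 genes in any region. The share of all genes called was 4.58% for the OB, 0% for the HC, 0.0144% for the CX and 5.42% for the BS. At an unadjusted p under 0.05 there was 1 of the 8 genes for the OB, 0 for the HC, 2 for the CX and 3 for the BS, against 17.6%, 5.69%, 9.89% and 21.3% of all genes. edgeR on the recovered reads also called 0, and DESeq2 called 4, namely Ptch1 and Boc as higher and Gli3 as lower in the BS and Hhip as lower in the OB. The DEG rule was met 5 times. In the CX, Gli3 was higher by 1.25 (SE 0.40, adjusted p = 0.338) and Boc lower by 1.19 (SE 0.37, adjusted p = 0.334), where 2.77% of all genes met the rule. In the BS, Gli3 was lower by 1.09 (SE 0.33, adjusted p = 0.074) and Boc higher by 1.07 (SE 0.31, adjusted p = 0.058), where 9.03% did. The remaining one was Hhip in the OB, where 8.04% did. No hedgehog gene met the rule in the HC, where 1.28% of all genes did. These comparisons share their libraries, since each region is part of the rest for the others.

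In the pairs of regions, 4 differences passed the adjusted threshold, 3 for Gli3 and 1 for Boc, all described above. The pair of OB and BS, in which 15% of all genes differed, held 0 of them, as did OB and HC with 7.11% and HC and CX with 1.23%.

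**Figure D3:**
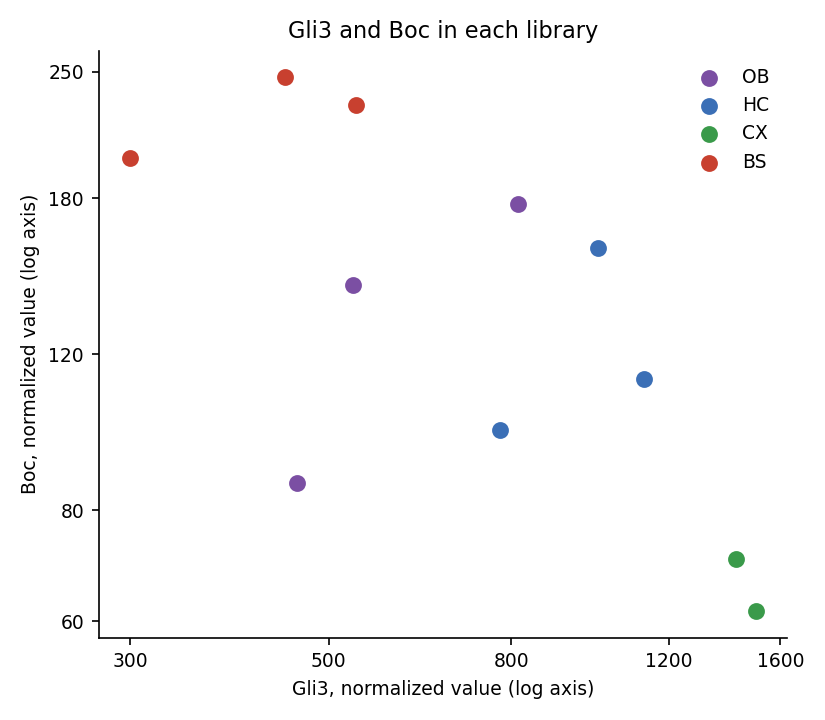
Normalized value of Gli3 (horizontal, log axis) against that of Boc (vertical, log axis) in the 11 libraries, colored by region. The CX libraries lie at the lower right and the BS libraries at the upper left, and the ratio of Gli3 to Boc was 20.2 to 24.4 for CX and 1.5 to 2.34 for BS libraries.

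Within a library the ratio of 2 genes does not depend on the size factor. The ratio of the normalized values of Gli3 and Boc was 5.37, 3.71 and 4.60 in OB, 7.87, 6.32 and 10.01 in HC, 24.4 and 20.2 in CX and 1.5, 1.81 and 2.34 in BS libraries. The 4 regions did not overlap in this ratio, in the order CX, HC, OB and BS. The pair was singled out by the tests above, so the ratio describes the same difference and was not tested.

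Per kb of exon, which allows levels of different genes to be compared, the mean over the 11 libraries was highest for Ptch1, at 236, followed by Smo at 130, Gli3 at 97.4, Gli2 at 37.7, Boc at 32.3, Hhip at 8.97, Cdon at 6.57 and Gli1 at 5.83, with Shh at 0.209. Ptch1 ranged from 150 to 512 and Gli1 from 2.14 to 17.1 over the libraries. Among the 3 Gli genes, Gli3 made up 49.8% to 77.9% of their summed level per kb, Gli2 20.2% to 40.6% and Gli1 1.89% to 16.2%. The mean Gli3 share was 76.2% ± 2.5 (SD, n = 2) for CX, 71.6% ± 2.90 (SD, n = 3) for HC, 65.8% ± 1.41 (SD, n = 3) for OB and 58.2% ± 7.52 (SD, n = 3) for BS libraries. The Gli1 share was 5.08%, 9.62% and 16.2% in the BS and at most 3.70% in every library of the other regions. Gli3, the largest part of the sum, was lowest in the BS, so the Gli1 share partly restates that difference. Gli1 itself did not pass across the regions (limma adjusted p = 0.395). These shares use exon lengths of all annotated transcripts together, which need not be the transcripts these cells make.

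**Figure D4:**
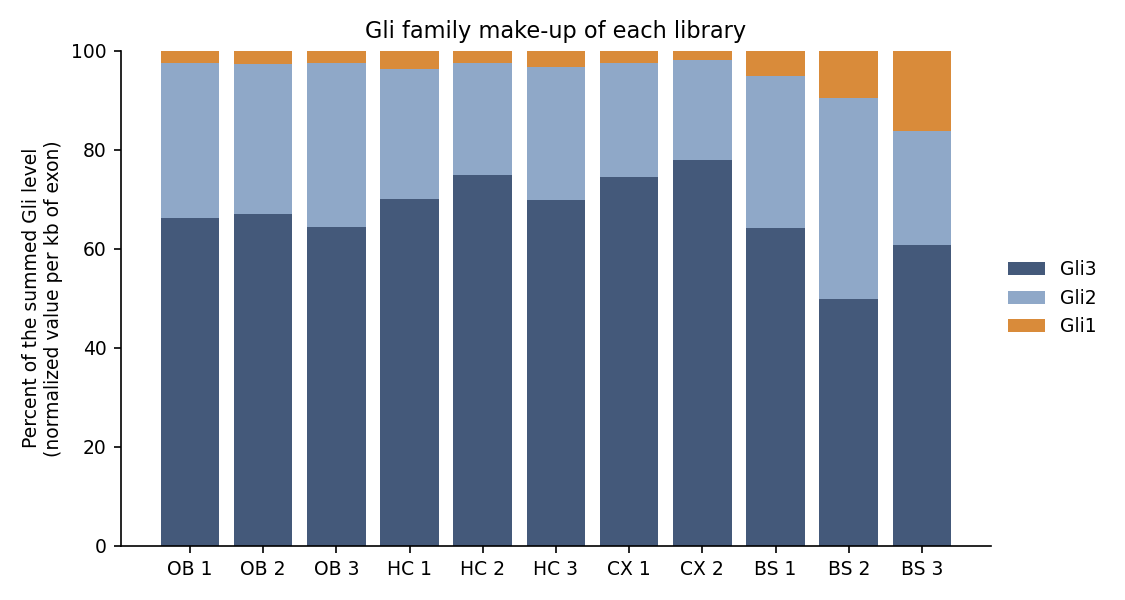
Share of Gli1, Gli2 and Gli3 (percent, stacked to 100) in their summed normalized value per kb of exon in each of the 11 libraries. The Gli1 share was highest in the BS libraries, at 5.08% to 16.2%, against 1.89% to 3.70% elsewhere, and the Gli3 share was highest in the CX, at 74.4% and 77.9%. A low Gli3 value, as in the BS, raises the Gli1 share.

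The genes closest in pattern to Gli3 and Boc were found from the root mean square difference of log2(value + 1), each gene centered on its own mean over the 11 libraries. For Gli3, whose own spread on this measure was 0.72, they were Fermt2 (0.233), an integrin-binding adaptor, Gng12 (0.261), a G protein subunit, and Ugp2 (0.262), an enzyme of UDP-glucose synthesis. Fermt2 had region means of 3399 in the CX, 2278 in the HC, 1654 in the OB and 1094 in the BS. Gli2 ranked 149 in likeness to Gli3 (0.431) and Boc ranked 10431 (1.24). For Boc, with a spread of 0.65, the closest were Ptrh2 (0.243), a mitochondrial peptidyl-tRNA hydrolase, Ccdc15 (0.314) and Odc1 (0.339), the first enzyme of polyamine synthesis. Ptrh2 and Ccdc15 did not themselves pass across the 4 regions (limma adjusted p = 0.076 and 0.092). Odc1 had region means of 949.5 in the BS, 702 in the OB, 522 in the HC and 401 in the CX. Ptch1 ranked 234 in likeness to Boc, at a difference of 0.515, not far under Boc's own spread of 0.65.

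Of 55 further genes of the pathway, grouped by role, 54 were in the tables and 48 were tested. Across the 4 regions 11 of the 48 differed, against the 16.5% of all genes given above. The median log2 difference of the 48 from the rest was 0.04 for the OB, -0.04 for the HC, 0.06 for the CX and -0.05 for the BS, against 0.02, 0.02, -0.03 and 0.02 for all genes. In each region against the rest, 6 of the 48 genes were called, 2 higher and 1 lower in each of the OB and the BS. The share of all genes called was 4.58% for the OB and 5.42% for the BS. Bcl2 and Gria1 were higher and Spop lower in the OB, and Gria4 was higher and Slc1a3 lower in the BS. Of these, Slc1a3 was the one called under every alternative. The remaining call was Nkx6-1 in the BS, which had passed the filter on low reads only through that region. It is kept in these counts, and nothing is concluded from it.

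**Figure D5:**
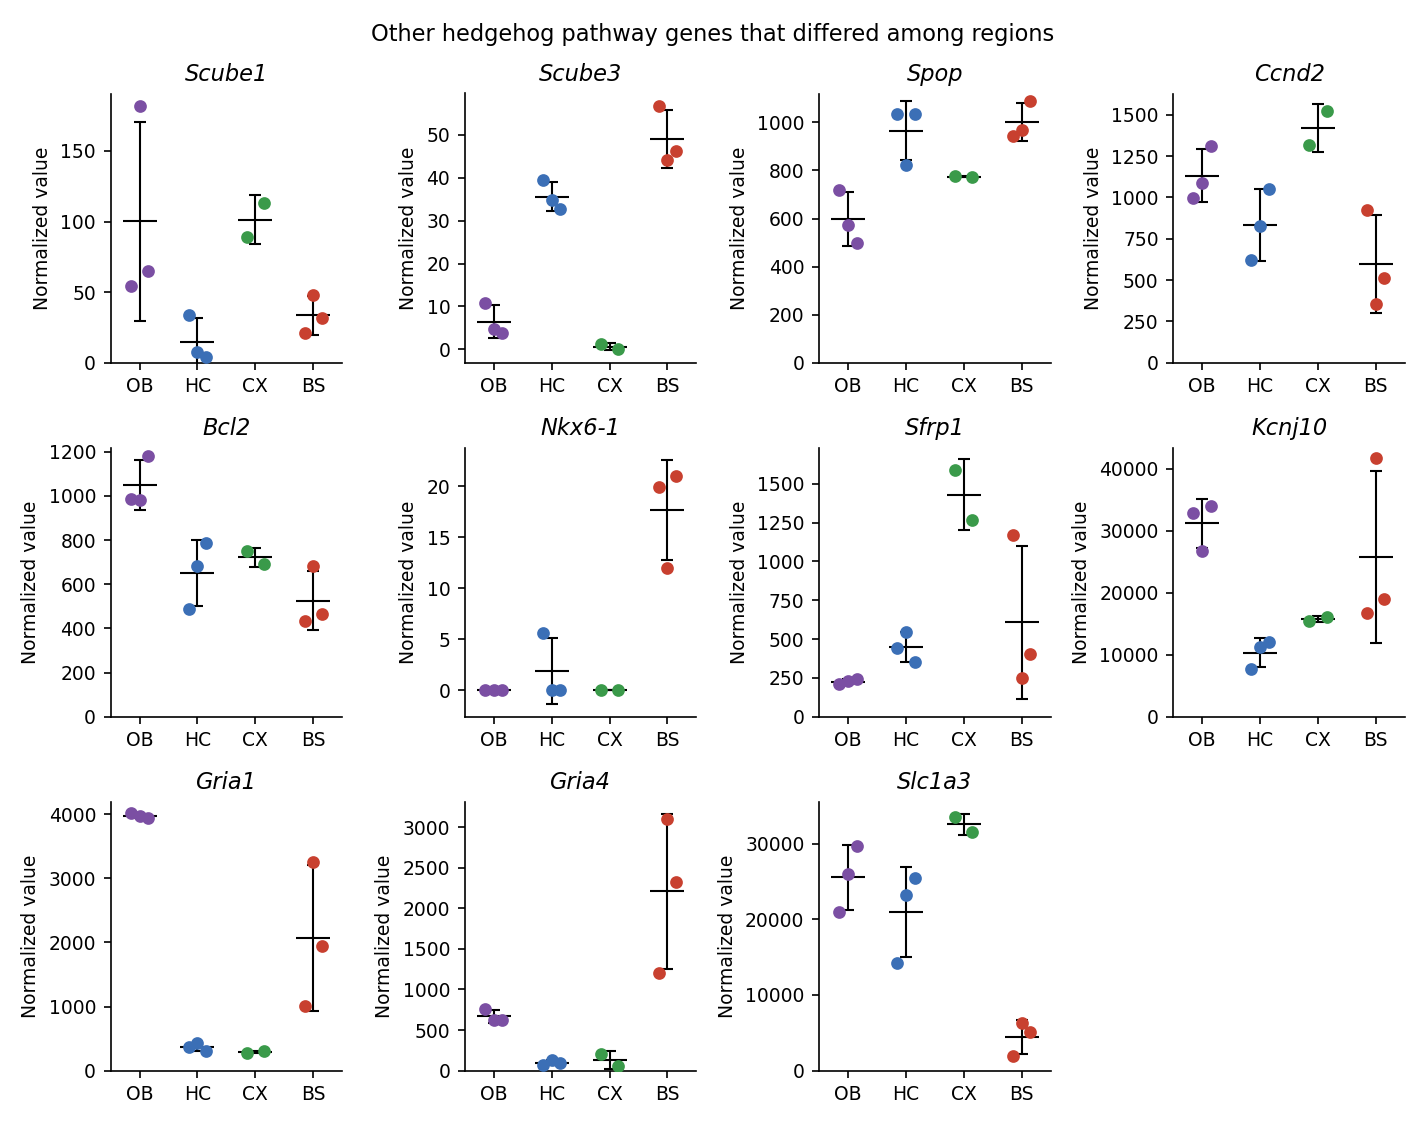
Normalized value (vertical axes, linear) of the 11 further pathway genes that differed across the 4 regions, by library; the horizontal mark is the mean and the bars are ± SD (n = 3 for OB, HC and BS and 2 for CX). Gria1 lay between 3943 and 4010 in the OB, and Slc1a3 between 1953 and 6315 in the BS against at least 14218 in every other library.

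Among the genes for ligands and their release, 2 of 7 tested differed, against 16.5% of all genes. Both encode secreted Scube proteins, a family that helps to release the lipid-bearing ligand. Scube3 gave 10.9, 4.74 and 3.77 in OB, 39.3, 34.7 and 32.7 in HC, 1.26 and 0 in CX and 56.8, 44.1 and 46.3 in BS libraries (adjusted p = 0.00024 across the regions). The HC and BS lay above the OB without overlap, and the CX held 1 read. The choroid plexus markers, with the sums given above, were also higher in every HC and BS library than in any OB or CX library, and their part in the Scube3 values was not tested. The OB and HC differed with an adjusted p of 0.022, which rose to between 0.059 and 0.0997 without any 1 HC library, OB replicate 2 or OB replicate 3. That call was also lost in 3 of 9 other settings (adjusted p up to 0.066). Scube1 was low in the HC, at 33.7, 7.31 and 3.67, and high in the CX, at 89.2 and 113, with 54.3, 182 and 64.6 in the OB and 21.0, 48.1 and 31.6 in the BS (adjusted p = 0.012). Dhh, a ligand made by Schwann cells and in the testis, gave 10.9, 19.7 and 8.08 in the OB, 9.99, 0 and 0 in the HC, 0 in both CX libraries and 3.15, 0 and 0 in the BS, and its adjusted p was 0.117. Its 69 reads passed the filter on low reads only because of the OB libraries. Nothing is therefore concluded from that test, and Dhh remains in the counts. Markers of olfactory ensheathing glia and sensory neurons were high in the OB alone, and their part in the Dhh values was not tested. Ihh had 2 reads in 1 HC library.

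Gas1, a membrane co-receptor, lay between 77.8 and 224 with overlap of all regions (adjusted p = 0.736). None of the 13 regulators of Smo and of its protein kinase A branch and none of the 9 genes of ciliary transport passed the test across the 4 regions. Of all genes, 16.5% did. Sufu, which holds Gli proteins in the cytoplasm, had means between 91.3 and 95.6 in the 4 regions, with an adjusted p of 1.00. Kif7, a ciliary kinesin that acts on Gli proteins, lay between 7.67 and 32.4 (adjusted p = 0.601). Of the 6 regulators of Gli proteins, 1 differed, against 16.5% of all genes. Spop, an adaptor that brings Gli2 and Gli3 to the Cul3 ubiquitin ligase, gave 719, 575 and 499 in the OB, under all other libraries, and was lower there than in the rest by 0.64 on the log2 scale (SE 0.16, adjusted p = 0.034). That call was lost in 5 of 9 other settings, with an adjusted p up to 0.312, and without OB replicate 2 or 3, HC replicate 1 or 3 or BS replicate 2 or 3, with an adjusted p up to 0.218.

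Of 8 tested targets known from other tissues, 4 differed, against 16.5% of all genes. Nkx6-1 is among the 4, with the limit given below. Bcl2, which restrains apoptosis, was higher in the OB, at 985, 983 and 1180, than in the rest, by 0.78 (SE 0.20, adjusted p = 0.039). The call was lost without any 1 OB library, HC replicate 1 or 2 or BS replicate 3 (adjusted p up to 0.206) and in 2 of 9 other settings. Nkx6-1, a homeodomain factor of the ventral neural tube, gave 20.0, 12 and 21.0 in the BS, 5.62 in HC replicate 1 and 0 in the remaining 7 libraries. Its 44 reads passed the filter on low reads only through the BS. Nothing is therefore concluded from its calls, which remain in the counts. Sfrp1, a secreted Wnt antagonist, reached 1591 and 1268 in the CX, against 208 to 242 in the OB (adjusted p = 0.0020). Its call across the 4 regions was lost in 2 of 9 other settings, with an adjusted p up to 0.070 with scaling to the astrocyte markers. In the BS Sfrp1 was 1170, 250.4 and 406. The highest of these was replicate 1, which stood apart in its meninges and choroid plexus markers, and their part in the Sfrp1 values was not tested. Ccnd2, a cyclin of the G1 phase, was higher in the CX, at 1319 and 1524, than in the BS, at 926, 355 and 514 (adjusted p = 0.012). The call was lost without CX replicate 1 (0.073) or CX replicate 2 (0.107), and with scaling to the astrocyte markers, where the adjusted p was 0.248 for this pair and 0.471 across the 4 regions.

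All 4 of the astrocyte genes known to need hedgehog input, as described for Bergmann glia of the cerebellum, differed across the regions, but not in one direction. Of all genes, 16.5% differed. Gria1, an AMPA receptor subunit gene, gave 4010, 3964 and 3943 in OB, 364, 438 and 314 in HC, 274 and 302 in CX and 1005, 3259 and 1945 in BS libraries, and was higher in the OB than in each other region (adjusted p-values of 4.2e-06 for HC, 1.2e-05 for CX and 0.021 for BS). The difference from the BS was no longer called without any 1 OB library or without BS replicate 1 or 3 (adjusted p up to 0.066). It was also lost in 2 of 9 other settings (up to 0.096). The call against the rest was lost without any 1 OB or HC library (up to 0.151) and in 6 of 9 other settings. Gria4, another subunit gene, was highest in the BS, at 1202, 3093 and 2326, followed by the OB, at 759, 622 and 629, and lay between 58.3 and 211 in the HC and CX (adjusted p = 0.020 for the BS against the rest, and up to 0.098 without any 1 BS library). Kcnj10, the gene of the potassium channel Kir4.1, gave 32855, 26678 and 34048 in the OB and 7653, 11324 and 12008 in the HC, a difference of 1.61 on the log2 scale (SE 0.33, adjusted p = 0.0065). It was 15428 and 16110 in the CX and 16722, 41742 and 18939 in the BS, which held the highest library. Slc1a3, the gene of the glutamate transporter GLAST, gave 1953, 6315 and 5142 in the BS and was lower there than in the rest by 2.64 (SE 0.34, adjusted p = 0.00048). Gria4 was thus highest and Slc1a3 lowest in the BS.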

How the data were processed

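RNA of Aldh1l1-eGFP astrocytes from 4 brain regions was sequenced from total RNA with the Trio RNA-Seq kit, in 11 libraries. The authors aligned reads to mm10 with STAR 2.5.0a and normalized gene counts with DESeq2 1.20.0, and the paper names the unit RPM. The deposited signal is a read count divided by 1 size factor per library: dividing by the value of 1 read gave whole numbers (tolerance 0.001) for 100% of the values above 0, so reads were recovered. Genes passing edgeR's filterByExpr on these reads entered two-sided limma tests (limma 3.58.1, R 4.3.3) of log2(value + 1), allowing the variance to depend on the mean (trend), with Benjamini-Hochberg adjustment over 13875 genes. Fold changes on this scale understate those of low genes. Comparisons were made across the 4 region means, each region against the pooled rest, and 6 pairs of regions. Alternatives used edgeR 4.0.16 and DESeq2 1.42.0 on recovered reads, CPM scaling, a pseudocount of 0.25, no filter, no trend, region means, a replicate block, leaving out each library, and scaling to the 8 astrocyte markers.

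All 9 members are named. Of the other pathway genes, those passing the test across the regions are named, with Dhh, Ihh, Gas1, Sufu and Kif7 (1 more gene of this rule is not reported here), and for each member that passed, the 3 genes most alike in pattern. The members and lists were chosen with earlier results of these data known. Of the further lists, neurons had 6 of 8 markers that differed across the regions, oligodendrocyte precursors 0 of 3, microglia 1 of 5, endothelium and pericytes 0 of 6, ependyma 2 of 3 tested, neuroblasts and dividing cells 4 of 7, olfactory sensory neurons 3 of 3, ensheathing glia 2 of 2 and meninges 1 of 3. The share of all genes that differed was 16.5%. Exon lengths and coordinates are from GENCODE for GRCm38 (mm10). Pipelines were tested on simulated data. Python 3.11.15, pandas 2.3.3, scipy 1.17.1 and matplotlib 3.10.9 were used.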

Additional observations from a re-analysis of the deposited data

How the results depend on the processing

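No called log2 difference of a named gene changed direction under the alternatives. Across the 4 regions, 2 hedgehog genes were called, and 2 to 3 under the other settings; leaving out single libraries gave 1 to 3. Gli3 was called under every setting and Boc under every one except without CX replicate 1. Each region against the rest gave 0 calls, but 4 with DESeq2, 4 with region means in place of the pooled rest, 5 by the DEG rule, and 1 each with CPM scaling and with scaling to astrocyte markers, the last chosen after seeing the data. Leaving out single libraries gave 0 to 1. The pairs of regions gave 4 calls, 2 without the trend (both lost were Gli3), 7 each with DESeq2, CPM scaling and astrocyte scaling, and 3 to 8 without single libraries, with 8 without BS replicate 1. Of the other pathway genes, 11 were called across the regions, 5 without the trend and 15 with DESeq2, and 8 to 14 without single libraries. Each region against the rest gave 6, but 3 with edgeR and TMM factors, 2 without the trend, 25 with region means and 12 by the DEG rule, and 2 to 7 without single libraries, with 2 without BS replicate 3 and 3 without OB replicate 2 or OB replicate 3. Why these settings differ was not tested. With astrocyte scaling the median gene moved by -0.35 for the CX and 0.32 for the BS, and with CPM scaling by -0.37 for the CX, 0.21 for the OB, 0.20 for the HC and -0.14 for the BS.

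Correlations of deviations from the region means were -0.16 to 0.25 (median 0.02) for 15 same-number pairs and -0.22 to 0.18 for 30 others. Deviations within a region cancel by construction, and those of the 2 CX libraries mirror each other. The values here therefore cannot show whether replicate numbers were paired. Between OB and HC, same-number pairs gave 0.19, 0.07 and 0.25, above the -0.22 to 0.03 of their other pairs. Between HC and BS, same-number pairs gave 0.11, 0.09 and -0.16. Whether any samples were paired was not tested. With the replicate block, hedgehog calls were 2 across the regions, 0 against the rest and 5 in pairs, and other pathway calls 13 across the regions and 3 against the rest. Depth limits Shh, whose reads stayed under the floor in every library.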
